A study of Mus musculus with 2 samples.

Results

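The genes described here form the core of the mouse Hippo pathway: the coactivators Wwtr1 and Yap1, the TEAD factors Tead1, Tead2, Tead3 and Tead4, and the kinases Lats1, Lats2, Stk3 and Stk4. They were taken as the spots of both arrays whose gene name is one of these 10 symbols. That gave 21 spots, each a different probe, of 43379 non-control spots. The set was chosen by pathway around Wwtr1, which was itself selected on its difference between these arrays, so the values of Wwtr1 are a description and support nothing.

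Both groups were LSK cells, bone marrow cells without lineage markers that carry Sca-1 and c-Kit and include the haematopoietic stem cells and multipotent progenitors. The cells were sorted from C57BL/6 mice, either wild-type (WT LSK) or deficient in PAD4 (PAD4-/- LSK), the enzyme encoded by Padi4 that turns arginine in proteins into citrulline. The study asked which genes PAD4 deficiency affects in these cells, and each group had 1 array, hybridised with Cy3-labelled RNA amplified from 300 ng of total RNA. The sources used here do not give the age, sex and number of the mice, any pooling, or the deleted part of Padi4. With 1 array per group no difference had a replicate check. Each error given with a signal or a difference is the scanner's own error for the spot.

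In the Hippo pathway the kinases Stk3 and Stk4, also called MST2 and MST1, activate the kinases Lats1 and Lats2. These phosphorylate YAP, encoded by Yap1, and TAZ, encoded by Wwtr1, and so hold both proteins out of the nucleus. Unphosphorylated YAP and TAZ bind TEAD factors, which contact DNA, and switch on genes of growth and cell adhesion. The pathway is best known for limiting organ size in solid tissues, and much of its control acts on proteins, which RNA levels do not show.

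A probe counted as detected where the scanner software marked it well above background, which held for 63.9% of 41170 probes in wild-type and 64.1% in PAD4-deficient cells. The lowest such signal was 17.7 and 18.5. At its 3 probes Padi4 had 21.5%, 21.2% and 24.2% of the wild-type level in PAD4-deficient cells. Kit, which encodes c-Kit, had 9339 in wild-type and 9451 in PAD4-deficient cells, and Ly6a, which encodes Sca-1, had 2637 and 2312, so both markers of the sort were present. The arrays also differed in sex-linked RNA. By its brightest probe Xist was at least 951-fold higher in PAD4-deficient cells, and the Y-linked Ddx3y had a log2 difference of -1.36. Ddx3y was well above background on both arrays, with 3455 in wild-type and 1297 in PAD4-deficient cells. The PAD4-deficient array thus held both Xist and Y-linked RNA. Sex and genotype cannot be told apart here. In bulk samples, fewer cells of a type and less RNA per cell cannot be told apart either.

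Wwtr1 was the one gene, of the 5 measured on both arrays, that differed by 1.5-fold or more, and it was higher in PAD4-deficient cells at both of its probes. The first probe (A_51_P502608, mm8 chr3:57546558-57546617, minus strand) had a processed signal of 24.8 (error 4.59) in wild-type and 59.7 (error 7.14) in PAD4-deficient cells. The second (A_52_P571444, mm8 chr3:57547017-57550484) had 22.1 (error 4.25) and 43.0 (error 5.68). Both wild-type signals were close to the lowest detected signal, and both PAD4-deficient signals were farther above it. The exon that each probe lies in was not analysed here, since no mm8 annotation was used. The interval listed for the second probe spans 3468 bases, against 60 for the first.

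**Figure D1:**
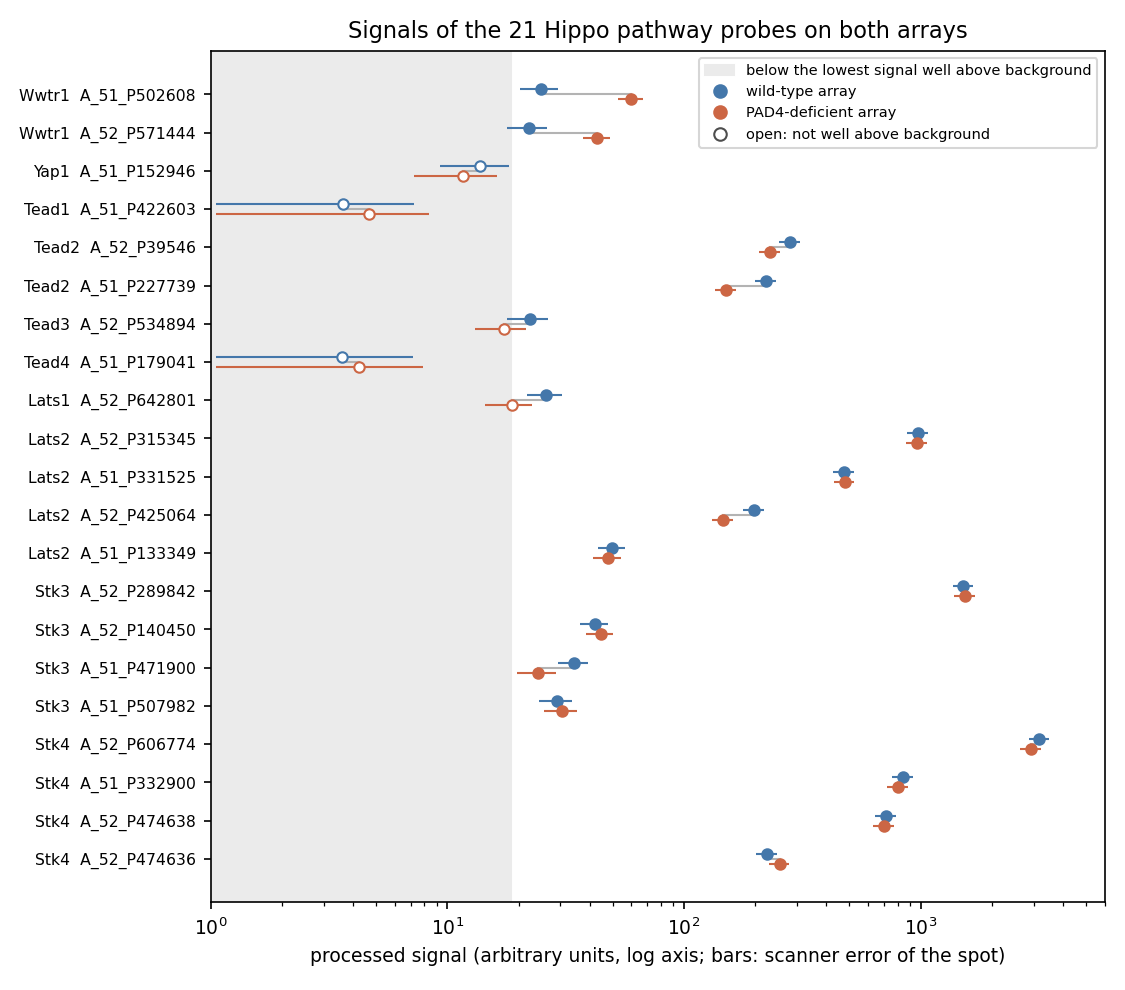
Processed signal of each of the 21 probes on the wild-type (blue) and PAD4-deficient (orange) arrays, on a log axis; bars are the scanner error of the spot, and those that reach below 1 end at the axis. Both Wwtr1 probes are near the shaded background range on the wild-type array and outside it on the PAD4-deficient array, while the points of the kinase probes outside that range lie close together.

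After scaling to the 75th percentile of each array, the log2 difference of Wwtr1 was 1.32 (error 0.32) at the first probe and 1.01 (error 0.34) at the second, ratios of 2.49 and 2.02. The difference was 4.14 times its error at the first probe and 3.01 times at the second. The spots lay far apart on the slide, in rows 444 and 143, and the local background of each differed by 1 unit between the arrays. The raw mean signals before background subtraction were 91.0 and 128 at the first probe and 93.5 and 117 at the second, so background made up a large part of each raw value.

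The spread of differences was wider among dim probes than among bright ones, except near the lowest detected level. The middle 95% ran from -0.65 to 0.87 at a mean level of -4.75 and from -0.40 to 0.32 at 1.75, on the log2 scale relative to the 75th percentile. At the dimmest level, -5.25, it ran only from -0.38 to 0.52. Probes there counted only when detected on both arrays, which leaves out large differences. The probes of like level to the second Wwtr1 probe include some of these, which narrows their range. Among 2986 probes whose mean level lay within 0.5 log2 units of that of the first Wwtr1 probe, the middle 95% of differences ran from -0.71 to 0.96, with 7.13% at least 1.5-fold and 2.28% at least 2-fold higher. Among 2859 probes like the second, that range was -0.64 to 0.80, with 6.26% at least 1.5-fold and 1.4% at least 2-fold higher. The differences of both Wwtr1 probes were above these ranges, with 1.07% and 1.29% of the like probes at or above them. Of 5878 genes with at least 2 measured probes, 29 (0.493%) were higher by 1.5-fold or more at every probe. At 2-fold there were 10 (0.17%), and Wwtr1 was among both. Since Wwtr1 was selected on its difference between these arrays, its place in these comparisons is a description only. Both comparisons were chosen after seeing the data. Background correction by normexp with an offset of 50 left Wwtr1 at 0.55 and 0.37, under 1.5-fold at both probes. Without the offset it was 1.02 and 0.71.

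**Figure D2:**
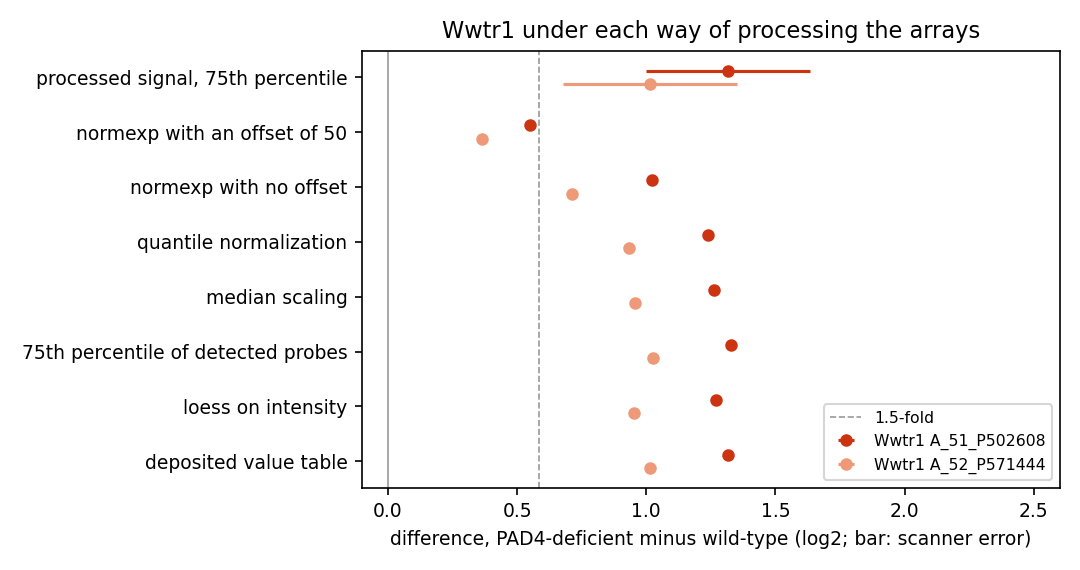
Log2 difference of both Wwtr1 probes, PAD4-deficient minus wild-type, for each way of processing the arrays; bars on the top pair are scanner errors and the dashed line marks 1.5-fold. All values are above 0, and only normexp with an offset of 50 takes both probes (0.55 and 0.37) below the dashed line.

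Yap1, the paralogue of Wwtr1, was not well above background on either array. Its single probe (mm8 chr9:7933061-7933120) had signals of 13.8 and 11.7 with errors of 4.45 and 4.44. The coactivator pair was thus read through Wwtr1 alone, and no difference can be given for Yap1.

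The promoters of both coactivator genes hold the letters GGAATG, the core of the element that TEAD factors bind, and are shown for that reason. They are the 250 bases before the most upstream RefSeq start of each gene in build GRCm38.p6, read 5′ to 3′ on the minus strand, with the motif in capitals: chr3:57575911-57576160 for Wwtr1 and chr9:8004597-8004846 for Yap1.
Wwtr1 promoter: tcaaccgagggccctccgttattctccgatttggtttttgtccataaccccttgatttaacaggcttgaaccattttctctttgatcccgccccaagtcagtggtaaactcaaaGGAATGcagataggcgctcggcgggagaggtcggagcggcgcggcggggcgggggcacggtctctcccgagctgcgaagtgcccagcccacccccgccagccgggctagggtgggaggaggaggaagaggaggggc
Yap1 promoter: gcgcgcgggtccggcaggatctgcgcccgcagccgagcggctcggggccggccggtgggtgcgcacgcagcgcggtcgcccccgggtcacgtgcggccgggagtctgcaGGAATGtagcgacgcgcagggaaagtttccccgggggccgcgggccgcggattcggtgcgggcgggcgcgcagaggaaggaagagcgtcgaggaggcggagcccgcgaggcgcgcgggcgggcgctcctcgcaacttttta
The motif began 136 bases before the start in Wwtr1 and 141 bases before it in Yap1. GGAATG and its reverse complement CATTCC were searched in these 250 bases, and 3 of the 7 members with a listed promoter held one or both: Wwtr1, Yap1 and Tead3. Over all 27025 genes with a promoter the share was 12.6%. Of 18 genes of the target list with a promoter, 7 held the motif, among them Ccn1 and Axl. A match is a run of letters and not a shown binding site.

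Of the TEAD factors, Tead2 was the only one well above background on both arrays, and it was lower in PAD4-deficient cells by less than 1.5-fold. Its brighter probe (mm8 chr7:45101486-45101545) had 281 (error 28.4) in wild-type and 231 (error 23.4) in PAD4-deficient cells. The other (mm8 chr7:45100284-45100343) had 222 (error 22.6) and 150.3 (error 15.6). The PAD4-deficient value was the lower one at both. The log2 differences were -0.24 (error 0.21) and -0.51 (error 0.21), and both lay within the middle 95% of probes of like level. By the brightest probe, 2221 of all 17022 measured genes had a difference as low or lower.

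The other TEAD genes were at or near background. Tead3 (mm8 chr17:28060366-28060542) had 22.3 (error 4.36) in wild-type cells, where it was detected, and 17.4 (error 4.21) in PAD4-deficient cells, where it was not. By the bound it was at least 1.16-fold lower, but the bound leaves out the spot error. The difference was -0.31 (error 0.45), so its direction is not settled. Of 784 probes detected in wild-type cells only, 24.2% were at least 1.5-fold lower by the same bound. Tead1 (mm8 chr7:112690667-112690726) had 3.61 and 4.66, and Tead4 (mm8 chr6:128192978-128193037) had 3.60 and 4.22, each with an error about as large as the signal. Neither gene was well above background on either array. A pair of probes that the files list under a clone name, 2610024B07Rik, and RefSeq assigns to Tead1 had 18.7 and 15.5, and 5.19 and 3.81. The first of them was detected in wild-type cells only.

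The kinases Stk3, Stk4, Lats1 and Lats2 differed little between the genotypes. Of their 13 probes, 12 were well above background on both arrays, with differences from -0.46 to 0.23 and a median of 0.03, against 0.02 over all measured probes. The difference was smaller than its scanner error for 9 of the 12, with 7 above 0 and 5 below. The share of all measured probes within their error was not computed, so nothing particular to the kinases is read from that count. None of the 12 reached 1.5-fold, against 2.49% of all measured probes higher and 2.08% lower.

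Stk4, the MST1 kinase at the top of the cascade, had 4 probes. The brightest (mm8 chr2:163846572-163846631) had 3180 (error 318) in wild-type and 2920 (error 292) in PAD4-deficient cells, a log2 difference of -0.07 (error 0.20). The others differed by -0.01, 0.02 and 0.23, so the 4 probes spread over 0.30 log2 units, close to the median spread of 0.31 among 395 genes with 4 measured probes.

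Stk3, the MST2 kinase, was read best by 1 probe (mm8 chr15:34820397-34820456), with 1517 (error 152) in wild-type and 1545 (error 155) in PAD4-deficient cells and a difference of 0.08 (error 0.20). Its other 3 probes had signals between 24.2 and 44.5 and differences of 0.13, 0.12 and -0.46. The last value came from a dim probe, with 34.4 in wild-type and 24.2 in PAD4-deficient cells and an error of 0.34. With normexp and an offset of 50 it was -0.06.

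Lats2, the kinase that acts on YAP and TAZ and is itself a known YAP target, was nearly equal in both genotypes at 3 of its 4 probes. The brightest (mm8 chr14:56644080-56644139) had 974 (error 97.5) in wild-type and 963 (error 96.4) in PAD4-deficient cells. The next had 474 and 477, and the dimmest 49.7 and 47.6, with differences of 0.03, 0.06 and -0.01. The remaining probe, listed with another transcript and lying apart from the rest (mm8 chr14:56676512-56676571), had 198 and 146, a difference of -0.39 (error 0.21), or -1.86 times its error. The brightest probe and the next (mm8 chr14:56644108-56644167) overlap, so they are not separate readings, and the difference of the dimmest had an error of 0.27. The 3 probes near each other thus gave similar values. The distant one was lower in PAD4-deficient cells by less than 1.5-fold.

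Lats1, the second kinase of this step, had 1 probe under its own name (mm8 chr10:7403063-7403122), with 26.1 (error 4.50) in wild-type and 18.7 (error 4.21) in PAD4-deficient cells. It was detected in wild-type cells only. Its level in PAD4-deficient cells was above the lowest detected level, so its fold of 1.35 lower was the measured ratio and not a minimum. The difference was -0.43 (error 0.41). A brighter probe listed as AW208599, which RefSeq assigns to Lats1 (mm8 chr10:7405952-7406011), had 639.8 (error 64.1) and 552 (error 55.3), a difference of -0.16 within its error of 0.20. By that probe Lats1 was detected in both genotypes.

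**Figure D3:**
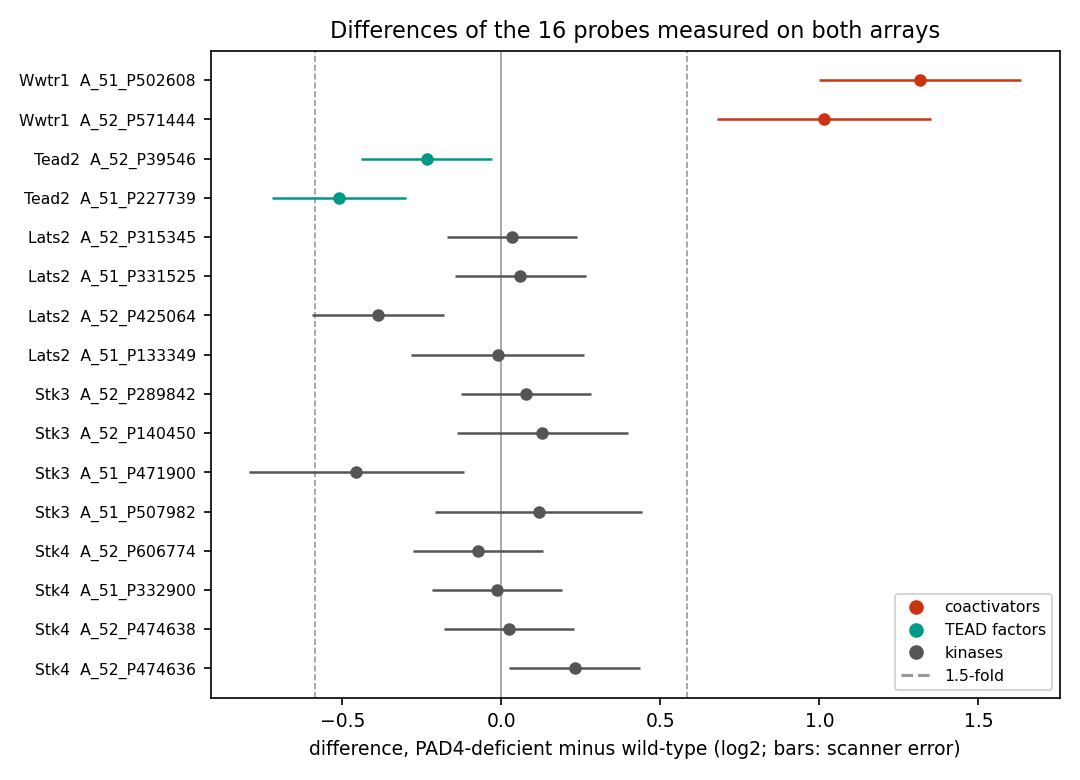
Log2 difference of the 16 probes well above background on both arrays, with the scanner error as a bar and dashed lines at 1.5-fold. The Wwtr1 probes (1.32 and 1.01) stand to the right of the dashed line, and the other 14 lie between -0.51 and 0.23.

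Over the set, 16 of 21 probes and 5 of 10 genes (Wwtr1, Tead2, Lats2, Stk3 and Stk4) were measured on both arrays. At least 1.5-fold higher were 2 of the 16 probes, both of Wwtr1, against 2.49% of all 25524 measured probes. None was 1.5-fold lower, against 2.08%. At 2-fold the same 2 probes remained, against 0.854%, but the second Wwtr1 probe was under 2-fold with median scaling (0.96), quantile normalization (0.93) and loess (0.95). By the brightest probe of each gene, 1 of the 5 was 1.5-fold higher and none lower, with 2.88% and 1.87% over all 17022 measured genes (490 and 318). Under median scaling those were 426 and 417. Since Wwtr1 helped to choose the set, nothing is read from these counts. At Wwtr1's brightest probe, 94 genes (0.552%) had a difference as high or higher.

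**Figure D4:**
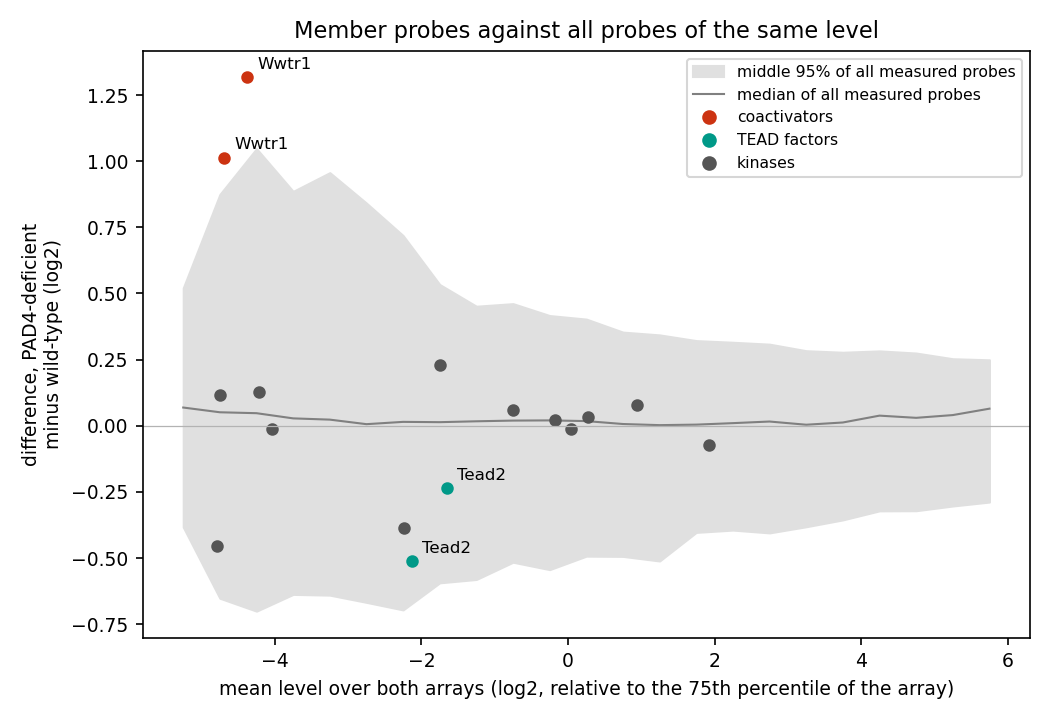
Log2 difference of the 16 member probes against their mean level over both arrays, relative to the 75th percentile of each array; the band holds the middle 95% of all measured probes in steps of 0.5 log2 units. The band is wider on the dim side than on the bright side, but narrows again at its dimmest step. Both Wwtr1 points are on the dim side with differences of 1.32 and 1.01, and the Tead2 and kinase points lie inside the band.

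Of the rest of the pathway, 5 genes differed by 1.5-fold or more. Together 88 genes were listed as scaffolds and kinase adaptors, inhibitors and junction proteins, vestigial-family cofactors, or target genes of YAP and TAZ. The member Lats2 is among the 88 as a target gene. Of the 88 genes 72 were measured on both arrays, with a median difference of -0.01 against 0.02 over all genes. At least 1.5-fold higher were 2 (2.78%, against 2.88% of all genes) and lower were 3 (4.17%, against 1.87%), and none was 2-fold different, against 1.01% higher and 0.476% lower at 2-fold over all genes.

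Among 31 measured scaffolds and kinase adaptors none was 1.5-fold different by its brightest probe, with a range of -0.35 to 0.24. Sav1, the scaffold of Stk3 and Stk4, had 1704 and 1842, which is a difference of 0.16 (error 0.20). Mob1a, a cofactor of the Lats kinases, had 0.11 (error 0.20), and its paralogue Mob1b had 0.02 (error 0.21). Nf2, the membrane protein merlin that recruits the Lats kinases, had 866 and 698, a difference of -0.26 (error 0.20), with -0.51 (error 0.29) at a dimmer probe. In 3 of these genes, named after their values were seen, a dimmer probe was past 1.5-fold while the brightest was not. The share of all genes with such a probe was not computed, so nothing is read from this count. The upstream kinase Map4k3 had 1.34 (error 0.21) at that probe and -0.07 and 0.07 at the others. The kinase Taok3 had 0.85 (error 0.26) at its dimmest probe and 0.02, 0.13 and 0.36 at the others, and Strn4, a striatin, had -0.62 (error 0.20) against -0.12.

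Among 27 measured inhibitors and junction proteins, 1 was 1.5-fold higher and 3 were 1.5-fold lower, with a median of -0.01. Vgll4, which competes with YAP and TAZ for TEAD factors, had 644 in wild-type and 375 in PAD4-deficient cells, a difference of -0.73 (error 0.20) from its single probe. It was the one vestigial-family gene measured: Vgll1, Vgll2 and Vgll3 were not well above background on either array. Wtip, of the Ajuba family of Lats inhibitors, had 1004 and 609.7, a difference of -0.67 (error 0.20). Tjp1, a tight junction protein, was dim, with -0.67 (error 0.37) at 1 probe and 0.05 (error 0.44) at the other. Of the angiomotins, which hold YAP and TAZ at junctions, Amot had 0.16 (error 0.20) and Amotl2 0.02 (error 0.22), and Amotl1 was not well above background on either array.

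Among 18 measured target genes of YAP and TAZ, 2 were 1.5-fold higher and none lower, with 9 above 0, 9 below and a median of 0.00. Ccn1, also called Cyr61, a matrix protein and a standard readout of the pathway, had 105 and 89.9, a difference of -0.18 (error 0.22). Axl, a receptor tyrosine kinase, had 76.8 and 60.0, a difference of -0.31 (error 0.23). Ccn2, also called Ctgf, and Ankrd1 were not well above background on either array. The higher ones were Ccdc80, a matrix protein, with 42.0 in wild-type and 79.9 in PAD4-deficient cells and a difference of 0.98 (error 0.25), and Fjx1, with 20.6 and 33.8 and 0.77 (error 0.36), which is also in the list of inhibitors and junction proteins. Both were dim and had 1 probe each. With normexp and an offset of 50 no gene of the lists was 1.5-fold higher.

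**Figure D5:**
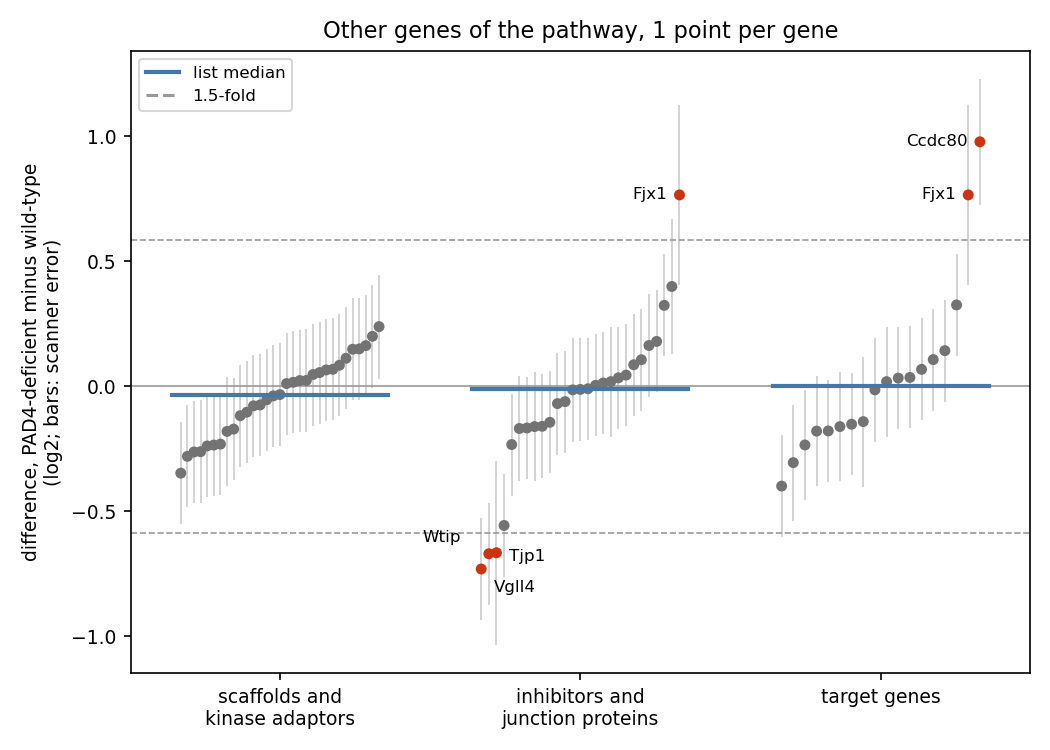
Log2 difference of each measured gene of 3 pathway lists by its brightest probe, ordered within a list, with the scanner error as a bar, the list median in blue and dashed lines at 1.5-fold. The medians are near 0 (-0.03, -0.01 and 0.00), and the named genes in red are those past 1.5-fold; Fjx1 appears in 2 of the lists.

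Several genes listed as erythroid, megakaryocyte, or macrophage and dendritic cell markers were higher in PAD4-deficient cells as well. Over all measured genes 2.88% were 1.5-fold higher and 1.87% lower, and in lists this short a single gene already exceeds those shares. Summed signals are processed signals before scaling, so the brightest genes of a list weigh most in them. Of 10 measured erythroid markers 6 were 1.5-fold higher and none lower, with a median of 1.25 and summed signals of 16831 in wild-type and 21171 in PAD4-deficient cells. Hbb-bt, a globin gene, alone gave 11209 and 14449 of these. Alas2 (-0.47) and the globin gene Hba-a1 (-0.22) were below 0. Of 9 megakaryocyte markers 3 were 1.5-fold higher, with a median of 0.44 and summed signals of 12728 and 16003, and Gp6 was not well above background on either array. Of 12 macrophage and dendritic cell markers 2 were 1.5-fold higher and 1, Flt3, was lower, with a median of 0.13. Summed signals were 5216 and 4783, of which Flt3 gave 2439 and 1481. Flt3 is also counted among the stem cell and sort markers. Mertk and Vsig4 were detected in PAD4-deficient cells only and are not in those sums, which were 5250 and 5071 with every gene of the list. The part of these cell types in the difference of Wwtr1 was not tested.

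YAP and TAZ are well known in stromal and endothelial cells, whose markers were read in the same way. Of 9 measured stromal markers 1 was 1.5-fold higher and 3 were lower, with a median of -0.12 and summed signals of 4424 and 3618. Pdgfrb alone gave 3057 and 2301 of these. Among the lower genes, Postn had -0.61 (error 0.21) at its measured probe. Its other probe, listed under a clone name, had 4.91 in wild-type and 90.6 in PAD4-deficient cells. That probe was detected in PAD4-deficient cells only, and was at least 5.30-fold higher there by the bound. Lepr, Pdgfra, Col1a1, Col3a1, Dcn, Lum and Kitl were not well above background on either array. Of 12 measured endothelial markers 1, Flt1, was 1.5-fold higher and none lower, with a median of 0.17 and summed signals of 32908 and 26917. Egfl7 alone gave 24445 and 19340 of these. Cdh5 and Flt4 were not well above background on either array. Of 12 stem cell and sort markers 1, Flt3, was 1.5-fold lower (-0.67), with a median of -0.11 and summed signals of 168660 and 150926. Cd34 alone gave 95103 and 85480 of these.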

How the data were processed

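Per the file headers, the 1-colour Agilent arrays were scanned and quantified with Feature Extraction 9.5.3.1 (given as 9.5 in the submitters' processing notes), with mm8 probe positions. The authors deposited intensity per spot on a linear scale, background-subtracted and detrended, with a spot error. They also deposited log2 values: for all 41170 probes each was, within 0.01, log2 of the median processed signal minus a constant (9.67 and 9.62). The column medians were -3.59 and -3.53, and neither scale, centring nor direction stays unknown.

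Control spots and outlier spots were left out, which removed 4 probes. Values were log2 of the processed signal minus the 75th percentile of the array, and a probe was measured when well above background on both arrays. A gene took its brightest measured probe. A probe above background on 1 array gave an at-least fold: its level there over the higher of its own level and the lowest level well above background on the other array. This fold leaves out the spot error, and it is the measured ratio where the probe's own level was the higher. Probe names were updated through the RefSeq table of GRCm38.p6: 24363 probes by accession, 6307 by symbol and 2425 by synonym, while 8075 kept the file's name. No test was possible with 1 array per group, and the number of arrays limits the precision. Of the pathway lists, all genes at least 1.5-fold different by the brightest probe and up to 4 widely used members were named; marker lists are given mainly by counts. Members and lists were chosen with earlier results of these data known. A single marker gene is not reported here. The steps were tested on simulated data. Python 3.11.15, numpy 2.4.6, pandas 2.3.3, statsmodels 0.14.6 and limma 3.58.1 in R 4.3.3 were used. Alternatives were normexp, quantile, median, detected-probe and loess scaling (window 0.3), the deposited table, other filters, 2-fold and the mean over probes; the comparison with probes of like level and the requirement that all probes pass were chosen after seeing the data.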

Additional observations from a re-analysis of the deposited data

How the results depend on the processing

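No paired analysis was possible because a single array represented each genotype, and no replicate could be left out. Wwtr1 lay between 1.24 and 1.33 at its first probe and between 0.93 and 1.03 at its second under the 4 other scalings and in the deposited table. Normexp with an offset of 50 gave 0.55 and 0.37, so the count of member probes and of member genes 1.5-fold higher became 0 and 0; the offset shrinks differences of dim probes by construction, and 1.19% of all genes were then 1.5-fold higher. The differences of the other 14 measured probes moved by less than the scanner error in all of 98 recomputed values except 1 (a dim Stk3 probe), and none passed 1.5-fold. The pathway genes 1.5-fold higher, 2 in the main count, were 0 with normexp and an offset, 1 with normexp and no offset, and 0 at 2-fold. Those lower, 3 in the main count, were 2 with either normexp setting and 2 with the mean over probes. They were 4 with median scaling and 0 at 2-fold. With no filter on signal the higher and lower genes were 6 and 6, as dim probes entered. The cause of the counts with normexp and no offset was not tested. Signal over background limits Yap1, Tead1 and Tead4, which have no difference. It also limits Tead3 and Lats1, detected in wild-type cells only by the probes under their own names. Their folds leave out the spot error.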
